A study of Mus musculus with 13 samples.

Results

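Collagens and laminins are the main building proteins of the extracellular matrix, and the genes for them were examined here in mouse retrosplenial cortex, a cortical area behind the cingulate cortex with roles in navigation and memory. The members are every gene in the deposited count tables whose symbol is a collagen chain (Col, a type number, a and a chain number) or a laminin chain (Lama, Lamb or Lamc and a number from 1 to 5). This rule uses names only and found 55 genes of 35468 in the 2 tables together. The table of single neurons holds 34 of them among 15114 genes, and the table of tissue sections holds all 55 among 32285. The 21 members with a row in the section table alone are Col2a1, Col4a3, Col4a4, Col4a5, Col4a6, Col6a3, Col6a5, Col6a6, Col8a2, Col9a1, Col10a1, Col13a1, Col14a1, Col15a1, Col17a1, Col18a1, Col26a1, Col27a1, Lama1, Lamb2 and Lamc3.

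The neurons came from untreated wild-type mice of strain B6, whose retrosplenial cortex was cut out of acute slices and dissociated, with cells pooled across slices. There were 11 samples with 765 cells, and the deposited cell annotation assigned them to 3 animals and to an anterior, medium or posterior dissection level. The spatial data were 2 Visium libraries from wild-type brain, cut at 10 µm and stained for the neuronal protein NeuN and the DNA dye DAPI, with 1022 and 951 spots. A Visium spot covers several neighbouring cells, which may differ in type. Age and sex are not given in the sources used here. All groups share the same genotype and had no treatment, so the comparisons are between kinds of neuron, between dissection levels and between zones of a section.

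Total counts were 2306470 to 15974543 per cell sample, and the median cell held 65843 counts in animal 1, 132797 in animal 2 and 185995 in animal 3. The sections, S4 and S8, held 8436518 and 6389042 counts. Levels are given as CPM, the counts of a gene scaled to the same total in every library. The 34 members with a row in the cell table together made up 165 to 169 CPM of the neuron counts in each animal, and 223 CPM in section S4 and 203 CPM in section S8. All 55 members of the section table came to 252 and 230 CPM. The labelled cell type was borne out by its markers: the 3 excitatory markers summed to 279 to 556 CPM over the 8 clusters compared below, and the 3 GABAergic markers with a row to 0.246 to 4.39 CPM. Of 7 endothelial and 5 immune markers looked for, 0 have a row in the cell table. Mural markers (4 of 7 with a row) summed to 0.306 to 68.2 CPM, fibroblast and meningeal markers (2 of 8) to 1.69 to 144 CPM, astrocyte markers (5 of 6) to 33.0 to 730 CPM and oligodendrocyte markers (6 of 6) to 44.7 to 198 CPM. None of these lists was at 0 in every cluster. Aldoc alone made up 727 CPM of the astrocyte sum in cluster 8, where that sum was highest. In cluster 3, where it was lowest, Aldoc made up 29.0 CPM. Without the 34 cells in which markers of other cell types made up over 0.1% of counts, 22 of the 23 calls of members in clusters given below were kept and 1, Col19a1 in cluster 6, was lost. That share was taken over markers with a row, so it held no endothelial or immune gene.

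Collagen chains wind into triple helices. Fibrillar collagens such as types I, III, V and XI form banded fibres, and type IV forms the sheet of basement membranes. Type VI forms beaded filaments, the FACIT collagens sit on the surface of fibres, and transmembrane collagens such as types XXIII and XXV are anchored in the cell membrane and can be shed. A laminin is a trimer of 1 alpha, 1 beta and 1 gamma chain, which binds integrins and dystroglycan on cells and organises the basement membrane. In adult brain most of this matrix surrounds blood vessels and lines the pia, while some collagens, among them Col19a1 and Col25a1, are also made by neurons.

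Promoter windows help to place 2 facts of the results below: which genes share a start region, and how unlike the starts are of the 5 members that differed both between neuron clusters and between section zones. RefSeq windows of 300 bases (250 before and 50 after each annotated start, build GRCm38.p6) matched 40 of the 55 members, with 44 windows. The type IV chains Col4a1 and Col4a2 lie head to head on chromosome 8. Their windows share 78 bases, chr8:11312777-11312854, printed in capitals in the pair below, each 5′ to 3′ on its own gene's strand. The annotated starts, at 11312826 for Col4a1 on the minus strand and 11312805 for Col4a2 on the plus strand, overlap by 22 bases.
Col4a1, chr8:11312777-11313076, minus strand: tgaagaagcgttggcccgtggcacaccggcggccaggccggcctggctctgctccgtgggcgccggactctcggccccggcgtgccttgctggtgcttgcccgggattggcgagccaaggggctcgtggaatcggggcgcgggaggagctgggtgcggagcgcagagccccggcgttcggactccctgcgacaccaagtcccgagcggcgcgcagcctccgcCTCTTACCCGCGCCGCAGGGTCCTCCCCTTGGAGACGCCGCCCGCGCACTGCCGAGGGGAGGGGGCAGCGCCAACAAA
Col4a2, chr8:11312555-11312854, plus strand: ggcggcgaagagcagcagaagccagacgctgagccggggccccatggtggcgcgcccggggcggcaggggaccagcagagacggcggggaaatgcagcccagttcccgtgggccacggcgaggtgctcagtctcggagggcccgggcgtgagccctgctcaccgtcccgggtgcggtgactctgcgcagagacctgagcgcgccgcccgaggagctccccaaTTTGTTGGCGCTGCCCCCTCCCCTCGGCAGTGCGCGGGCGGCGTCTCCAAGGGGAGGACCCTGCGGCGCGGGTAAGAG
In the windows of the 5 members that differed in both assays, capitals mark the GC box GGGCGG or its reverse complement CCGCCC.
Col5a1, chr2:27886175-27886474, plus strand: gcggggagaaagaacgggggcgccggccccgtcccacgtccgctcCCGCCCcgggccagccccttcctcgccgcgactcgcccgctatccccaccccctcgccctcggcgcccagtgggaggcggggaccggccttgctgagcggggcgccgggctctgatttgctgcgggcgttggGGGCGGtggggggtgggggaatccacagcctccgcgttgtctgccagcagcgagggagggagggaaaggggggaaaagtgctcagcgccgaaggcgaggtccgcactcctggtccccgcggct
Col6a1, chr10:76725995-76726294, minus strand: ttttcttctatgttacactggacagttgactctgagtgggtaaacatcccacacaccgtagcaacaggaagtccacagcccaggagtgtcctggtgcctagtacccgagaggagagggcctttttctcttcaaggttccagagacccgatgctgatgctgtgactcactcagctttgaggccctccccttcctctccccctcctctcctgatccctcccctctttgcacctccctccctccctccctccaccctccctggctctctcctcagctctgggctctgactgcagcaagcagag
Col6a2, the first listed of its starts, chr10:76623355-76623654, minus strand: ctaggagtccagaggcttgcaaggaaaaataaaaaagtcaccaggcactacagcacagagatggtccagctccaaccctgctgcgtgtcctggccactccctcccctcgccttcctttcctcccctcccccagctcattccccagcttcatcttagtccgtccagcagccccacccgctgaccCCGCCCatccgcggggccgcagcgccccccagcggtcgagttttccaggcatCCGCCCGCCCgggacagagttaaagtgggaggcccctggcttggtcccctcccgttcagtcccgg
Col23a1, chr11:51289670-51289969, plus strand: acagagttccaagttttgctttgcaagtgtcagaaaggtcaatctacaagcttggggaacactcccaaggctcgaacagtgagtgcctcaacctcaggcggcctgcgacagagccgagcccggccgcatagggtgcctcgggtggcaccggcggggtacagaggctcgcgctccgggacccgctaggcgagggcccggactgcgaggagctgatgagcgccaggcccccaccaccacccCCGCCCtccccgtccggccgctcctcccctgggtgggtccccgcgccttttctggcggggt
Col25a1, chr3:130180595-130180894, plus strand: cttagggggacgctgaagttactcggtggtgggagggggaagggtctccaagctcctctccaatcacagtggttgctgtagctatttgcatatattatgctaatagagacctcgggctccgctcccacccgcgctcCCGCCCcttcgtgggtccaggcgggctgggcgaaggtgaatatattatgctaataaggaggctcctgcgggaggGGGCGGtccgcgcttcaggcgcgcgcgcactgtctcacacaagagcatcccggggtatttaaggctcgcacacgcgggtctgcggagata
The Col6a1 window held 0 GC boxes, that of Col23a1 held 1, those of Col5a1 and Col25a1 held 2 each, and that of Col6a2 held 3. A GC box on either strand was present in 26 of 44 member windows (59.1%) and in 35.7% of all 32851 windows of the table. A CCAAT box (CCAAT or ATTGG) was present in 14 member windows (31.8%, against 37.4% of all), and a TATA box (TATAAA or TTTATA) in 5 (11.4%, against 13.6% of all). The 3 motifs were searched separately and do not overlap in letters. These matches describe the letters in the window.

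To compare kinds of neuron, cells were clustered without the members and without a set of other matrix genes, so that no member helped to draw the clusters. The counts were then summed per animal and cluster. Clusters are given by number and leading genes. Cluster 4 (Nnat, Penk, Oprk1, Osr1) is layer 6 intratelencephalic-like and cluster 6 (Rprm, Ighm, Hs3st4, Syt6) is layer 6 corticothalamic-like by their markers. Cluster 1 was led by Calb1, cluster 2 by Thsd7a and Pygm, clusters 3 and 7 by C1ql2, cluster 5 by Ptprm and S100a10, and cluster 8 by Fam19a2 and Cxcl14. Those 6 are unnamed. Each cluster was set against the mean of the log levels of the other 7 with edgeR's quasi-likelihood test with the animal as a block. Calls needed an adjusted p (Benjamini-Hochberg) under 0.05 over all 13321 genes tested and a change of at least 1 on the log2 scale.

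Collagen and laminin genes differed between clusters of neurons, and the set that was high changed from cluster to cluster. Of the 28 members that passed the filter on low counts, 14 were called in at least 1 cluster, where 18.1% of all tested genes were called. Members that pass such a filter through 1 cluster alone had a better chance of differing. The calls numbered 23, of which 22 were higher (all 14 members, against 14.6% of all genes) and 1 lower (1 member, against 8.93%). Cluster 1 had 7 members called higher, where 3.17% of all genes were, and cluster 6 had 5 (2.93%). Clusters 2 and 4 had 4 and 3 (4.82% and 3.63% of all genes). Clusters 3, 5 and 7 had 1 each (1.72%, 1.22% and 2.56%), and cluster 8 had 0 (2.03%). By family, 4 FACIT or FACIT-like genes, 3 type VI chains, 2 fibrillar chains, 2 transmembrane collagens, 2 laminin alpha chains and the type VII chain were called. The FACIT-like genes here include Col28a1, which is often kept apart from the FACIT collagens. The members below the filter were Col1a1, Col1a2, Col3a1, Col5a3, Lama2 and Lama5.

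Because the reference is a mean of log levels, a cluster can be called when several others are near 0, even if another cluster is higher. Fitted fold changes then depend on the small constant added to counts of 0, so the levels per animal and the ratio of mean CPM are given instead. Against the pooled counts of the other clusters of the same animal, a comparison chosen after seeing the data, 9 of the 23 calls were kept. These were Col12a1 and Col16a1 in cluster 6, Col6a1 and Col25a1 in cluster 4, Col11a1 and Col19a1 in cluster 1, Lama3 and Lama4 in cluster 2, and the low level of Col5a1 in cluster 7.

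**Figure D1:**
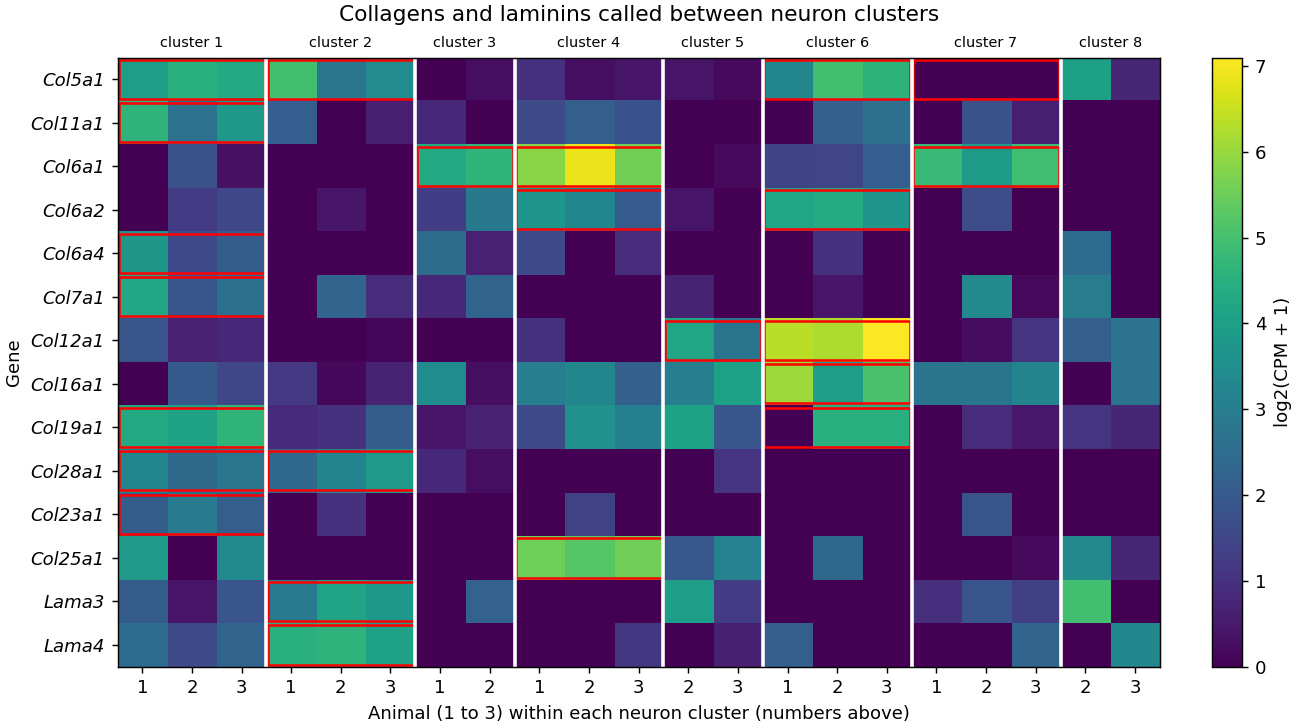
Levels of the 14 called members, as log2(CPM + 1), in each animal (columns) within 8 neuron clusters. Red frames mark the 23 calls by edgeR. Col12a1 in cluster 6 and Col6a1 in cluster 4 are the brightest cells, and Col5a1 is dark in clusters 3, 4, 5 and 7.

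Among the collagens that sit on fibre surfaces, Col12a1, a FACIT chain first known from tendon and ligament, was highest in cluster 6. Its level there was 80.7, 74.4 and 136 CPM in animals 1, 2 and 3 (97.0 ± 33.9, SD, n = 3), against a mean of 2.59 CPM over the other 7 clusters. The ratio was 37.5 and the edgeR adjusted p 9.2e-08, with a higher level in 3 of 3 animals. No animal of any other tested cluster reached the lowest of these values. The 744 counts came from 31 of 71 cells, with 16.9% of them in 1 cell. In clusters 10 and 11, too small for the test, Col12a1 was at 35.5 and 27.3 CPM of the pooled counts. Those were 58 counts in 4 cells and 33 counts in 3 cells, from 2 animals in each cluster. A single cell held 50% and 84.8% of them. The mural marker list was also highest in cluster 6, at 68.2 CPM, but Acta2, among that cluster's leading genes, made up 53.2 CPM of it. Of the other mural markers, Rgs5 was highest in cluster 6 among the 8 clusters compared, at 7.37 CPM. Pdgfrb and Tagln were highest in cluster 4, at 2.92 and 7.43 CPM, with 1.13 and 6.52 CPM in cluster 6. Without the 34 cells with most signal of other cell types the call of Col12a1 in cluster 6 was kept. The part of other cell types in its level was not tested.

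Cluster 5 held Col12a1 at 17.2 and 5.83 CPM in its 2 animals. It was called (edgeR adjusted p = 0.0015) although the arithmetic mean of the others, 14.8 CPM with cluster 6 included, was higher. That call was lost against the pooled counts of the others (edgeR adjusted p = 0.95).

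Col16a1, another FACIT chain, was at 65.2, 14.9 and 32.4 CPM in cluster 6 (37.5 ± 25.6, SD, n = 3), against 4.92 CPM in the others, where all 7 clusters held more than 3 counts. Its fitted difference was 3.16 ± 0.71 (SE) on the log2 scale, with an edgeR adjusted p of 0.0079. The animals spread widely, and the lowest of them was below animal 3 of cluster 5, at 15.5 CPM. Leaving out animal 1 or animal 3 ended the call (edgeR adjusted p = 0.064 and 0.052).

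Col19a1, which neurons use in the assembly of synapses, was at 19.0, 15.9 and 23.9 CPM in cluster 1 (19.6 ± 4.05, SD, n = 3). The other clusters averaged 4.83 CPM, a ratio of 4.06 (edgeR adjusted p = 0.0018). In cluster 6 it was at 0 CPM in animal 1 but 21.6 and 20.9 CPM in animals 2 and 3, so the groups overlapped. That second call (edgeR adjusted p = 0.026) was lost without animal 2, without animal 3, without the 34 cells with most signal of other cell types (adjusted p = 0.051) and against the pooled others (adjusted p = 0.88). The call in cluster 1 was lost without animal 1.

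Col28a1, a collagen with von Willebrand factor domains, was split between clusters 1 and 2. It was at 8.53, 4.49 and 5.94 CPM in cluster 1 and at 4.23, 8.21 and 13.2 CPM in cluster 2. No animal of the other 6 clusters exceeded 1.11 CPM, and clusters 4, 6, 7 and 8 held 0 counts. EdgeR adjusted p was 0.0044 in cluster 1 and 0.0011 in cluster 2. Both calls were lost against the pooled others, which for each of them include the other (adjusted p = 0.36 and 0.077). Leaving out any 1 of the 3 animals also ended the call in cluster 1.

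**Figure D2:**
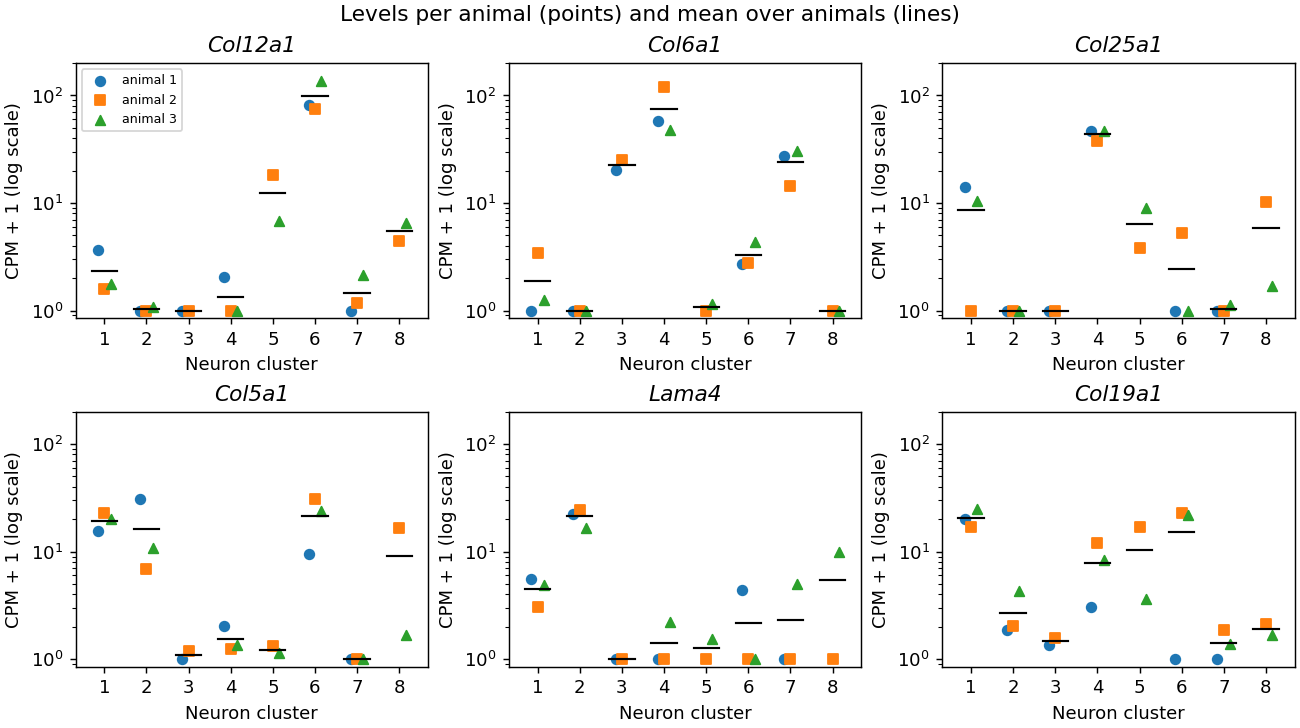
Levels of 6 members in each animal (points, CPM + 1 on a log axis) and their mean (lines) across 8 neuron clusters. Col12a1 stands at 74.4 to 136 CPM in cluster 6 and Col25a1 at 36.6 to 46.1 CPM in cluster 4, above every other cluster.

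Type VI collagen is built from 1 alpha 1 chain, 1 alpha 2 chain and 1 further chain. Col6a1 was at 56.7, 118 and 46.9 CPM in cluster 4 (73.9 ± 38.7, SD, n = 3). The other clusters averaged 6.86 CPM, a ratio of 10.8 (edgeR adjusted p = 1.4e-06). All 3 animals lay above every animal of the other 7 tested clusters, and no single cell held more than 9.81% of the 836 counts. In cluster 11, which was too small for the test, Col6a1 was at 45.5 CPM of the pooled counts. Those were 55 counts in 2 cells, 74.5% of them in 1 cell. In the tests, Col6a1 was also called higher outside cluster 4. These calls were in clusters 3 and 7, both led by C1ql2. There it reached 19.4 and 24.2 CPM in the 2 animals of cluster 3, and 26.4, 13.5 and 29.2 CPM in cluster 7 (edgeR adjusted p = 0.0012 and 1.1e-04). In clusters 1, 2, 5, 6 and 8 no animal exceeded 3.35 CPM. Among the 8 tested clusters the chain was thus present in 3 and near 0 in 5. The calls in clusters 3 and 7 were lost against a pool that includes cluster 4 (edgeR adjusted p = 0.61 and 0.44).

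Its partner chain Col6a2 was at 17.2, 19.5 and 12 CPM in cluster 6 (16.2 ± 3.83, SD, n = 3, against 1.99 CPM, edgeR adjusted p = 8.8e-04). In cluster 4 it was at 12.4, 8.48 and 3.18 CPM (8.01 ± 4.61, SD, n = 3, edgeR adjusted p = 0.012). The 2 chains therefore overlapped in cluster 4 only in part: cluster 6 had the higher level of Col6a2 while its Col6a1 level was 1.72 to 3.35 CPM. Leaving out any 1 animal ended the Col6a2 call in cluster 4, and the pooled comparison ended both (adjusted p = 0.12 in cluster 6 and 0.37 in cluster 4). In single cells, 16 of the 44 cells with a Col6a2 count had a Col6a1 count (36.4%), compared with 14% of all cells. Col6a4, an alternative to that further chain, was called in cluster 1 at 12.5, 1.96 and 3.25 CPM (edgeR adjusted p = 0.032), a call lost without animal 1 or animal 3, against the pooled others and by DESeq2.

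Of the fibrillar chains, Col5a1, which nucleates fibres of type I collagen, had the broadest pattern. It was called higher in cluster 1 (14.4, 21.6 and 19.2 CPM), cluster 2 (29.6, 5.96 and 9.83 CPM) and cluster 6 (8.58, 30.1 and 22.9 CPM). The edgeR adjusted p was 4.0e-04, 0.0011 and 2.0e-04 in that order. In clusters 3, 4 and 5 no animal exceeded 1.03 CPM, and cluster 8 was split, at 15.4 and 0.691 CPM. Cluster 7 held 0 counts in 3 of 3 animals, and against a limit of 3 counts over those animals it was at least 44.2-fold lower than the others, whose mean was 9.0 CPM (edgeR adjusted p = 0.016). The low level of cluster 7 held against the pooled others, but was lost without animal 3. The 3 higher calls were lost against the pooled others (adjusted p = 0.063, 0.66 and 0.56). The clusters low in Col5a1 included 3, 4 and 7, the ones in which Col6a1 was high, and clusters 1, 2 and 6 were low in Col6a1.

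Col11a1, a fibrillar chain of type XI, was at 23.6, 5.30 and 12.6 CPM in cluster 1 against 1.16 CPM elsewhere (edgeR adjusted p = 0.0087). No other sum exceeded 5.02 CPM, so the lowest animal was just above the others. Without any 1 of the 3 animals the call was lost. Col7a1, the anchoring fibril chain, was at 17.7, 2.76 and 5.08 CPM in cluster 1 (edgeR adjusted p = 0.0083). It overlapped with clusters 2, 3, 7 and 8. The call was lost without animal 1 or animal 3, without the block and against the pooled others (adjusted p = 0.22).

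The transmembrane collagen Col25a1, whose shed part binds amyloid beta, was at 45.3, 36.6 and 46.1 CPM in cluster 4 (42.7 ± 5.26, SD, n = 3). The other clusters averaged 2.75 CPM, a ratio of 15.5 (edgeR adjusted p = 5.4e-04). The next highest value in a tested cluster was 13.1 CPM, in animal 1 of cluster 1, and clusters 2 and 3 held 0 counts. No animal left out changed the call. Col23a1, also a transmembrane chain, was at 3.28, 6.45 and 3.40 CPM in cluster 1, while the other 7 clusters held 0 counts or counts in 1 cell each. Its edgeR adjusted p of 0.0023 became 0.072 against the pooled others, and the call was lost without animal 1 and by DESeq2.

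Among the laminins, alpha chains were the only ones called. Lama4, the alpha chain of vessel laminin, was at 21.6, 23.5 and 15.7 CPM in cluster 2 (20.3 ± 4.07, SD, n = 3). The other clusters averaged 1.60 CPM, a ratio of 12.7 (edgeR adjusted p = 8.6e-04). The highest value in another tested cluster was 8.98 CPM in animal 3 of cluster 8. Counts came from 48 of 122 cells, and the call was lost without animal 2 (edgeR adjusted p = 0.12). Lama3, the alpha chain of epithelial laminin, was at 6.77, 16.8 and 12.7 CPM in the same cluster (edgeR adjusted p = 0.013). It overlapped with cluster 5, at 14.7 CPM in animal 2, and with cluster 8, at 29.7 CPM in animal 2. Without animal 1 or animal 3 the adjusted p was 0.061 and 0.052. The endothelial markers that would mark vessel cells have no row in this table, so their level in cluster 2 could not be measured here. The fibroblast and meningeal list was highest in cluster 2, at 144 CPM, but Ptgds made up 142 CPM of it and Slc6a13 1.85 CPM. Ptgds was also at 92.3 CPM in cluster 1, 77.8 CPM in cluster 4 and 58.1 CPM in cluster 7. In clusters 3, 5, 6 and 8 it was at 1.69 to 2.27 CPM.

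The type IV chains of basement membranes were spread over all 8 tested clusters. The type IV chain Col4a1 ranged from 1.11 to 30.9 CPM over the animals and clusters and Col4a2 from 4.83 to 42.1 CPM, without a call by edgeR (DESeq2 called Col4a2). In single cells, 29 of 118 cells with a Col4a1 count also had a Col4a2 count (24.6%), compared with 27.8% of all cells. The Col4a1 cells were somewhat deeper than all cells, with medians of 156054 and 138331 counts. Co-detection of the head-to-head pair was thus no more common than in cells at large, as a description and without a test. Lamb1 and Lamc1, the common beta and gamma chains, had counts in 25 and 72 cells and shared 0 cells. With a count in only 3.27% and 9.41% of all cells, few shared cells could be looked for, and the 0 was not tested. The remaining members tested and not called were Col5a2, Col8a1, Col9a2, Col9a3, Col11a2, Col20a1, Col22a1, Col24a1 and Lamb3.

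Over clusters, the median fitted change of the 28 tested members ran from -0.59 in cluster 5 to 1.46 in cluster 1, on the log2 scale. For all tested genes it ran from -0.09 to 0.11. In cluster 1, the largest with 203 cells, 22 of the 28 members lay above 0, and the median of all tested genes there was 0.11. Several members had 3 counts or fewer in other clusters, and such fitted changes depend on the constant added to counts of 0. In cluster 8, with 0 members called by edgeR, 7 (25%) had an unadjusted p under 0.05, as did 20.4% of all tested genes.

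Genes that work with collagens and laminins were taken from lists by function. For each list, the share to compare with is the 18.1% of all tested genes called in at least 1 cluster. The lists were not tested as sets. Of 9 basement membrane partners with a row in the cell table, 8 were tested and 6 called. Pxdn, an enzyme that crosslinks type IV collagen, was at 62.9 ± 32.9 CPM (SD, n = 3) in cluster 6 against 14.5 CPM (edgeR adjusted p = 0.0016). Sparcl1, a secreted matrix protein, fell in cluster 4 to 1189 ± 55.3 CPM (SD, n = 3) against 2674 CPM (edgeR adjusted p = 7.6e-08). Npnt, an integrin ligand, was near 0 there (0.0764 against 38.2 CPM, edgeR adjusted p = 0.0028), and Agrn was higher in cluster 8 (83.0 against 42.7 CPM, edgeR adjusted p = 0.018).

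Of 17 tested matrix receptors, 4 were called in at least 1 cluster, where 18.1% of all tested genes were. Gpr56, an adhesion receptor that binds type III collagen, was at 21.9 ± 3.53 CPM (SD, n = 3) in cluster 2 against 3.49 CPM (edgeR adjusted p = 5.8e-05). Itgb3 was higher in cluster 7 (18.4 ± 23.5 CPM, SD, n = 3, against 0.299 CPM) and Itgb8 lower (0.357 against 10.1 CPM), and Itga7, a laminin-binding integrin, was at 35.7 against 1.94 CPM in cluster 6 (edgeR adjusted p = 0.048). Cluster 6 also had the higher level of P4ha2, which hydroxylates collagen prolines (32.7 against 10.9 CPM, edgeR adjusted p = 0.030). It was 1 of 2 called among 14 tested folding and modification genes, with Glt25d2 in cluster 3 (9.43 against 2.29 CPM). Of 5 tested processing genes, Adamts2 in cluster 3 (22.2 against 4.89 CPM) and Adamts3 in cluster 1 (17.5 against 6.07 CPM), both procollagen peptidases, were called. Of 6 fibrillar partners, 4 were called. Matn2 (41.3 against 10.7 CPM) and Fbln2 (13 against 3.64 CPM) were higher in cluster 4, and Fbln5 (15.2 against 1.84 CPM) and Fmod (2.70 against 0.297 CPM) in cluster 2. Of 14 genes for matrix degradation, 6 were called. The 4 with the smallest adjusted p were Mmp17 (8.03 against 144 CPM) and Mmp9 (25 against 0.734 CPM) in cluster 2, Mmp16 (111 against 51.4 CPM) in cluster 4 and Adamts4 (22.6 against 0.516 CPM) in cluster 6.

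For the comparison of dissection levels, counts of all cells were summed per animal and level, 3 animals each. Fewer cells of a kind and less RNA per cell cannot be told apart in such sums. No member was called by edgeR between posterior and anterior, where 0.103% of all 13628 tested genes were called. Between medium and anterior 0 members were called as well (0.00734% of all genes). At an unadjusted p under 0.05 there were 4 members for posterior (Col19a1, Col6a1, Col12a1 and Col7a1) and 1 for medium (Col7a1), of 28 tested in each, where 5.85% and 4.2% of all tested genes had such a p. DESeq2 called Col6a1 and Col19a1 between posterior and anterior and 0 members between medium and anterior. Members ran in both directions, 15 above and 13 below 0 in each comparison, with medians of 0.03 and 0.06 against 0.00 and -0.03 for all genes. The 2 comparisons share the anterior sums.

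Col6a1 was at 5.6, 0.519 and 4.27 CPM in the anterior level and 19.5, 36.1 and 19.5 CPM in the posterior level, in animals 1, 2 and 3. The groups did not overlap. The fitted difference was 2.81 ± 0.86 (SE) on the log2 scale, higher in 3 of 3 animals, with an edgeR adjusted p of 0.59. The medium level, at 16.3, 25.3 and 3.74 CPM, overlapped with the anterior. All 76 cells of cluster 3, one of the clusters with Col6a1, came from the posterior level, and cluster 4 held 22 anterior and 34 posterior cells. Within cluster 4, where levels could be compared in all 3 animals, Col6a1 was at 38.4, 9.31 and 24.6 CPM in anterior and 98.5, 218 and 52.9 CPM in posterior cells, here as CPM of the raw total. The groups again did not overlap, and the fitted difference of 2.22 ± 0.74 (SE) on the log2 scale had an unadjusted p of 0.012 and an edgeR adjusted p of 1.0. Of the 5 members tested in cluster 4, 0 were called, where 0.0115% of genes were, and 1 had an unadjusted p under 0.05, as did 3.95% of all genes tested there. DESeq2 called 0.

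Col19a1 ran the other way, at 8.41, 14 and 13.3 CPM in the anterior and 0.902, 3.18 and 6.02 CPM in the posterior level. It was lower in 3 of 3 animals by -1.93 ± 0.51 (SE) on the log2 scale (edgeR adjusted p = 0.46). The medium level, at 12.6, 14.5 and 13.6 CPM, overlapped with the anterior. Col12a1 was at 10.1, 8.82 and 9.83 CPM in the anterior and 0.180, 0.860 and 7.01 CPM in the posterior level (edgeR adjusted p = 0.77). Cluster 6, where Col12a1 was highest, held 27 anterior and 7 posterior cells, and cluster 5, where it was also called, 21 and 32. Col7a1 was at 7.85, 3.87 and 4.80 CPM in the anterior, 0, 2.57 and 0 CPM in the medium and 0.721, 3.53 and 0.149 CPM in the posterior level. Neither range overlapped with the anterior, but the adjusted p was 0.93 and 0.81. The share of the cluster makeup in these level differences was not tested beyond cluster 4.

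**Figure D3:**
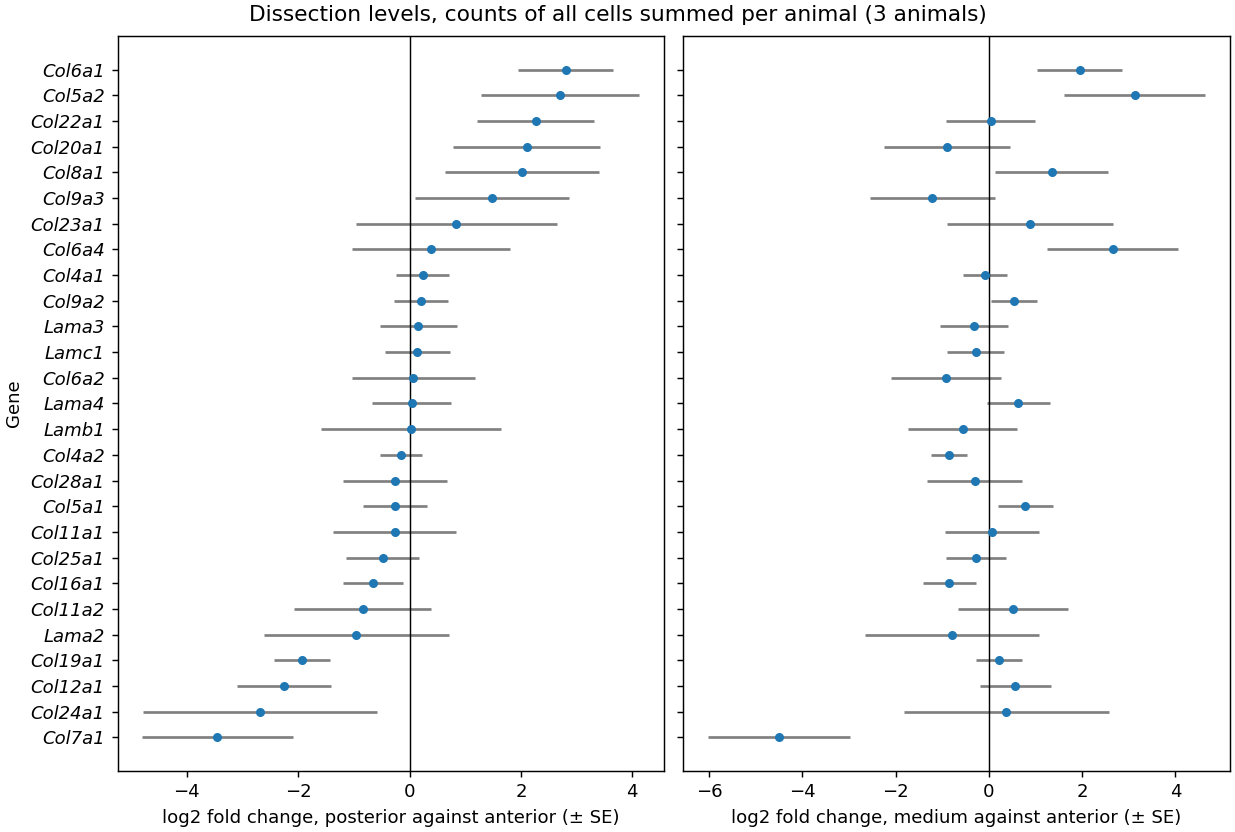
Fitted log2 fold change of 27 members (points) with its standard error (bars) for posterior against anterior (left) and medium against anterior (right), 3 animals. Col6a1, at 2.81, and Col7a1, at -3.45, are at the ends of the left panel, and no member was called by edgeR.

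In the tissue sections, spots were grouped into 9 zones, again without the members, with each gene centred within its section. Sums per section and zone were compared with the section as a block. These tests have 2 sections, and nothing in the labels says whether they came from separate animals. Of 55 members, 16 passed the filter on low counts and 10 of them were called in at least 1 zone, where 12.3% of 10641 tested genes were called. The calls numbered 17, with 13 higher (10 members, against 9.57% of all genes) and 4 lower (3 members, against 6.65%). Members called numbered 1 in zone 1 (1.93% of all genes), 2 in zone 2 (0.883%), 3 in zone 3 (3.4%), 4 in zone 4 (3.85%), 3 in zone 5 (3.4%), 0 in zone 6 (1.01%), 2 in zone 7 (2.67%), 0 in zone 8 (0.0658%) and 2 in zone 9 (2.91%). In zones 6 and 8, 3 and 2 of the 16 members had an unadjusted p under 0.05, as did 12.5% and 5.05% of all tested genes. The 39 members below the filter were Col1a1, Col2a1, Col3a1, Col4a3, Col4a4, Col4a5, Col4a6, Col5a2, Col5a3, Col6a3, Col6a4, Col6a5, Col6a6, Col7a1, Col8a1, Col8a2, Col9a1, Col9a2, Col10a1, Col11a2, Col12a1, Col13a1, Col14a1, Col15a1, Col17a1, Col18a1, Col19a1, Col20a1, Col24a1, Col26a1, Col27a1, Col28a1, Lama1, Lama2, Lama3, Lama4, Lama5, Lamb3 and Lamc3. Col4a4 and Col6a6 had 0 counts. The 6 tested and not called were Col4a1, Col9a3, Col11a1, Col16a1, Lamb1 and Lamc1.

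**Figure D4:**
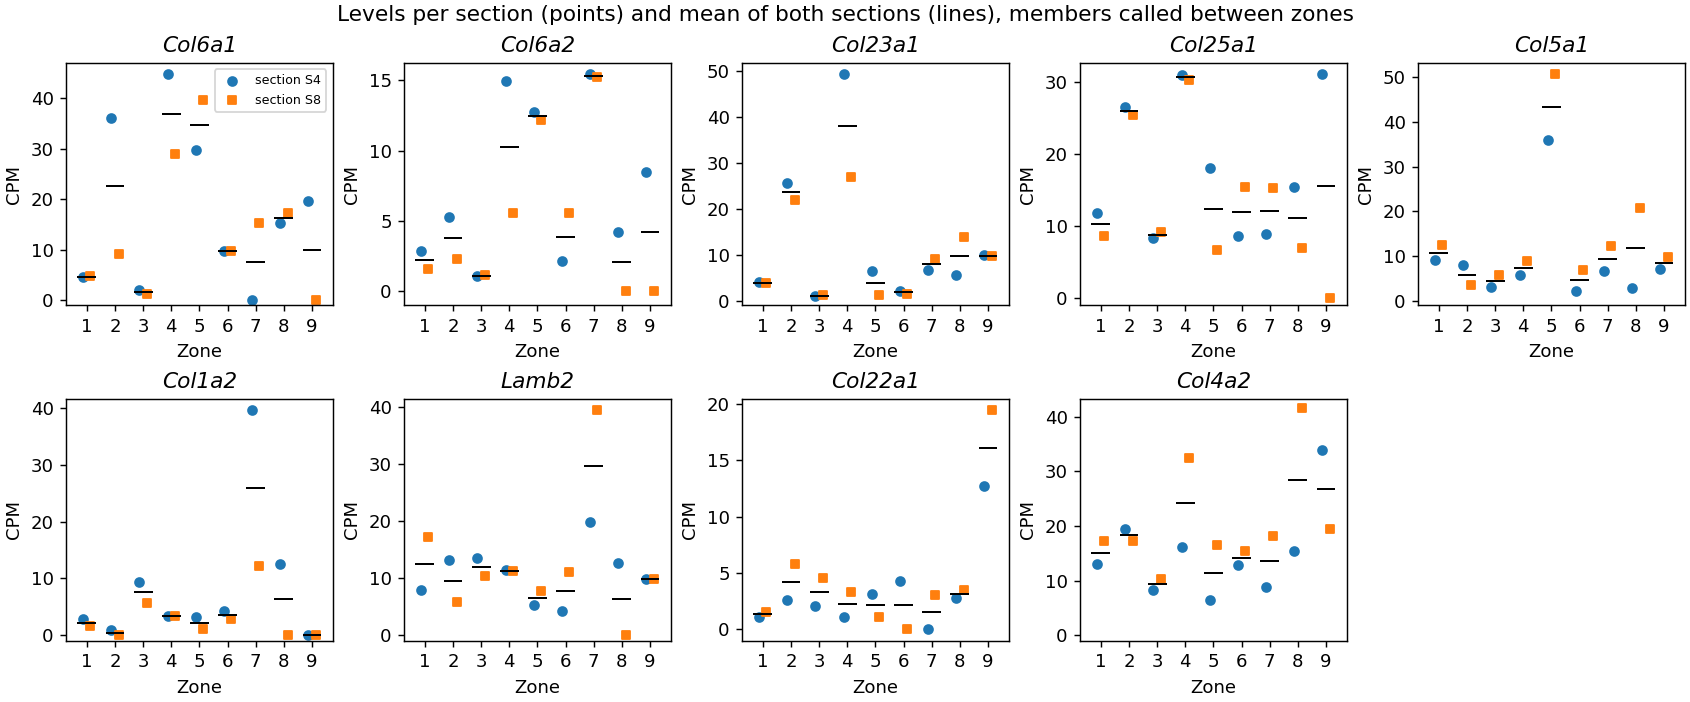
Levels of 9 called members in each zone of section S4 (circles) and section S8 (squares) in CPM, with the mean of both (lines). Col5a1 stands out in zone 5 and Col25a1 and Col23a1 are highest in zone 4, while Col4a2 overlaps between zones.

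Col5a1 was called in 1 zone. In zone 5 (leading genes Ighm, Rprm, Foxp2 and Mobp) it reached 36.0 CPM (S4) and 50.8 CPM (S8), beside a mean of 7.79 CPM in the other zones. No other zone exceeded 20.8 CPM in either section. The fitted difference was 2.58 ± 0.27 (SE) on the log2 scale (edgeR adjusted p = 8.7e-10). Zone 5 had the highest sum of layer 6 corticothalamic markers, 504 CPM, and of oligodendrocyte markers, 5772 CPM.

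Col6a1 and Col6a2 were called in zone 5 too. Col6a1 was at 29.7 and 39.8 CPM there and at 44.7 and 29.1 CPM in zone 4, led by Nnat, Calb2, Dcn and Trh. The fitted differences were 1.79 ± 0.32 and 1.87 ± 0.32 (SE) on the log2 scale (edgeR adjusted p = 7.9e-05 and 3.1e-05). It fell in zone 3, to 2.08 and 1.15 CPM (edgeR adjusted p = 0.0017), and in zone 1, to 4.51 and 4.69 CPM (edgeR adjusted p = 0.048). The zone 1 call was lost by DESeq2 and without the block. Zone 3 was led by Tshz2 and Slc17a6 and zone 1 by Cux2 and Nr4a1. In zone 2 it was at 36.1 CPM in S4 but 9.22 CPM in S8, and the call there (edgeR adjusted p = 0.04997) rested on S4. Col6a2 was at 12.7 and 12.1 CPM in zone 5 (edgeR adjusted p = 0.020). Zone 7 reached 15.5 and 15.2 CPM without a call, and the zone 5 call was lost by DESeq2, without the block and without the spot of most counts.

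The transmembrane collagens both led in zone 4. Col23a1 was at 49.3 and 26.8 CPM there, a fitted difference of 2.89 ± 0.30 (SE) on the log2 scale (edgeR adjusted p = 6.3e-10), and at 25.5 and 21.9 CPM in zone 2 (edgeR adjusted p = 2.2e-05), led by Sst, Nr4a2 and Ccn2. It fell in zone 3, to 1.04 and 1.15 CPM (edgeR adjusted p = 0.012), a call lost by DESeq2. Among the 8 neuron clusters compared, the same gene was highest in the Calb1-led cluster 1, at 3.28 to 6.45 CPM, and low in cluster 4, at 0 to 1.60 CPM. Col25a1 was at 31.0 and 30.2 CPM in zone 4 (1.16 ± 0.28, SE, on the log2 scale, edgeR adjusted p = 0.0035). Zone 2 was close, at 26.4 and 25.4 CPM, and zone 9 was split, at 31.0 and 0 CPM. Levels of neurons and sections come from separate tables and were not tested against each other.

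Zone 7, led by Ptgds, Mgp, Vim and Gfap, had the fibrillar chain Col1a2 and the laminin beta chain Lamb2. Col1a2, a chain of type I collagen that fibroblasts make, was at 39.7 and 12.2 CPM against 3.19 CPM (3.69 ± 0.55, SE, on the log2 scale, edgeR adjusted p = 5.0e-06). It rested on 22 counts, and the S8 value was below that of S4 in zone 8, 12.6 CPM. Without its spot of most counts the gene did not pass the filter. Lamb2 was at 19.9 and 39.5 CPM against 9.45 CPM (edgeR adjusted p = 0.028), a call lost without the section block and without the spot of most counts. Markers of other cell types summed to their highest values in the same zone: 2889 CPM for fibroblast and meningeal, 254 CPM for mural, 242 CPM for endothelial and 2726 CPM for astrocyte genes. Their part in the levels of Col1a2 and Lamb2 was not tested. In neurons Col1a2 came to 27 counts in all 765 cells.

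Zone 9, led by Penk and Wfs1, had only 14 spots in S8. Col22a1, a FACIT chain known from tissue junctions, was at 12.7 and 19.5 CPM there against 2.51 CPM (edgeR adjusted p = 0.016), on 11 counts. Col4a2 was at 33.8 and 19.5 CPM (edgeR adjusted p = 0.032) but overlapped with zones 4 and 8, and in S8 alone it was lower than the mean of the others. Both calls were lost by DESeq2 and against the pooled others.

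Of the 14 members tested both between clusters and between zones, 5 were called in both: Col5a1, Col6a1, Col6a2, Col23a1 and Col25a1. That is 5 of the 14 called between clusters and 5 of the 10 called between zones. Of all 9078 genes tested in both, 6.64% were called in both. Col11a1 and Col16a1 were called between clusters only. Col12a1, with the smallest adjusted p of the cluster calls, had 51 and 33 counts in the sections and did not pass the filter there.

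In spots, the head-to-head pair Col4a1 and Col4a2 was found together in 21 of 153 Col4a1 spots in S4 (13.7%, against 10.7% of all spots with Col4a2) and in 18 of 108 in S8 (16.7% against 11.8%). The type VI chains were together in 18 of 51 Col6a2 spots in S4 (35.3%, against 10.5% of all spots with Col6a1) and in 5 of 29 in S8 (17.2% against 8.20%). These shares are descriptions at 1 to a few counts per spot, and spots hold several cells.

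Of the partner genes, 4 of 10 tested basement membrane genes were called between zones. For this and the lists that follow, the share to compare with is the 12.3% of all tested genes called in at least 1 zone. The lists were not tested as sets. Smoc1 was higher in zone 4 (47 ± 3.13 CPM, SD, n = 2, against 7.61 CPM, edgeR adjusted p = 3.4e-10), Npnt in zone 1 (44.5 against 15.8 CPM), Fn1 in zone 7 (54.8 against 14 CPM) and Smoc2 in zone 9 (38.5 against 8.97 CPM). Of 12 receptors 2 were called, Adgrg1 (the newer symbol of Gpr56), lower in zone 1 (19.5 against 40.3 CPM), and Itgb5, higher in zone 7 (37.5 against 18.9 CPM). Among 10 folding genes Plod1 was called in zone 5 (16.2 against 6.08 CPM). Of 3 processing genes Pcolce was called in zone 7 (19.5 against 1.38 CPM) and Bmp1 in zone 9 (72.9 against 29.1 CPM). Of 5 fibrillar partners 4 were called. Dcn, a small proteoglycan that binds collagen fibres, was at 120 ± 67.9 CPM (SD, n = 2) in zone 4 against 16 CPM (edgeR adjusted p = 1.1e-16). Vtn (125 against 39.9 CPM) and Fbln1 (19.1 against 3.58 CPM) were called in zone 7 and Matn2 in zone 9 (57.5 against 26.3 CPM). Of 10 degradation genes 2 were called, Timp3 (112 against 40.3 CPM) and Timp4 (66.3 against 30.6 CPM), both inhibitors, in zone 7.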

How the data were processed

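The members and gene lists were chosen with earlier results of these data known. The authors deposited whole-number counts per gene, for 765 neurons and for 1973 spots of 2 Visium sections. Per the submitters' processing notes, Seurat, Space Ranger and the builds NCBIM37 and mm10 were used; the aligner and annotation are not given in the sources used here. The section libraries are called S4 and S8 as in the deposited table, and 162 spot barcodes occur in both. Cells were clustered on log counts scaled to 10000 (scanpy 1.11.5, 2000 variable genes, 30 components, 15 neighbours, Leiden resolution 1) without members and matrix genes, and spots likewise after centring within sections. No doublet caller was run. Sums of at least 10 cells or spots were fitted in edgeR 4.0.16 (filterByExpr, TMM, quasi-likelihood test, Benjamini-Hochberg adjustment), with clusters of at least 2 animals. CPM of members and partner genes per animal or section use TMM library sizes, except for the levels within cluster 4. Raw totals were used there, for all members together, for markers in neuron clusters and for counts pooled over a cluster. DESeq2 1.42.0, other scaling, filters, clusterings, leaving out animals and fits without the block were alternatives. The fits were also run on simulated counts with the same spread for every gene and changes only in genes above the median level. No difference between animals or sections was simulated. That setting is unlike the low counts of many members, so no conclusion about the members is drawn from it. Samples of 1 animal were summed, so that p-values for clusters and levels rest on sums per animal and not on cells. In each fit the spread was estimated over all its sums together. Clusters 3, 5 and 8 had sums from 2 animals, and the p-values for zones rest on 2 sections. Intervals are not given for single counts, and counts of few reads carry counting error. Animal numbers come from the deposited annotation, so same-numbered sums are from the same animal. Every member called was named with its values, except that 1 member, counted in the totals, is not reported here; members without counts or below the filter were listed, and of each partner list up to 4 called genes by smallest adjusted p. Members with fitted values based on clusters of 3 counts or fewer are given as CPM.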

Additional observations from a re-analysis of the deposited data

Results flagged for a closer look

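In 2 small clusters that took no part in the tests, 3 members with more than 3 counts, in at least 3 cells, stood above their level in every tested cluster. Members with counts in fewer cells were not considered. In cluster 10 (11 cells, led by Cplx3 and Ctgf and layer 6b-like by its markers), Col19a1 was at 123 CPM of the pooled counts, with 201 counts in 10 of 11 cells from 2 animals. Its highest tested cluster was cluster 1, at 21.0 CPM, and 30.8% of the counts came from 1 cell. In the same cluster Col24a1, a fibrillar chain, was at 25.1 CPM, with 41 counts in 4 cells, against at most 3.30 CPM in cluster 7, the highest tested cluster. It was at 67.9 CPM in cluster 11, with 82 counts in 2 cells of 1 animal. In cluster 11 (11 cells, led by Kcnip1 and Nxph1), Col16a1 was at 78.7 CPM, with 95 counts in 5 cells of 3 animals, against at most 27.8 CPM in cluster 6. A single cell held 57.9% of those counts. These clusters had too few cells per animal for a test.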

How the results depend on the processing

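In place of the 14 members called between neuron clusters, the count was 8 to 11 when 1 animal was left out. Without animal 3 it was 8, all 8 among the 14. Sums per sample with the sample as replicate block gave 5. Only 14 members could be tested there, and 13 of the 23 calls had no value. With no replicate block the count was 15, a net change of 1: Col5a2 and Col8a1 were gained and Col7a1 was lost. Against the pooled counts of the other clusters it was 10, and without each member's cell of most counts 14. DESeq2 gave 13 and other settings 11 to 15. Between dissection levels the count was 0 in each setting except DESeq2 for posterior against anterior, which gave 2. Between zones the 10 became 0 when spots were clustered without centring (1 member could be tested), 18 against the pooled counts of the other zones, 6 without each member's spot of most counts, 15 with no filter, 7 with no replicate block and 8 with DESeq2; the other settings gave 8 to 10. In section S8 alone, Col4a2 in zone 9 and Col6a1 in zone 2 were reversed, at -0.11 and -0.61 on the log2 scale (1.37 and 1.15 in S4 alone). Leaving out 1 section leaves no test. The causes of these changes were not tested. Low counts limit what could be seen: 39 of 55 members did not pass the filter in the sections.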
